A study of Drosophila melanogaster with 8 samples.

Results

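The regions described here are all H3K9me2 regions that the deposited lists place on the Y chromosome, taken as every row whose sequence name was Y, with unplaced scaffolds left out. There were 2003 such regions, which made up 6.28% of the 31871 regions in the 3 lists. H3K9me2 ChIP-seq was performed by the authors on whole heads of NelfA*/+ flies and control siblings at Day 50 of adult life, with 2 ChIP and 2 input libraries per genotype. NelfA*/+ flies were heterozygous for the Nelf-A KG09483 allele after repeated backcrossing to w1118, which leaves 1 copy of the gene intact in every cell, and they carried the label +/+; +/NELF-A*. Control siblings carried the label +/+; +/+ and came from the same crosses. Both groups were male according to the study, were kept at the same temperature and light cycle, and received no drug. Each library pooled heads of many flies, so neurons, glia, fat body and other head cells contributed together. A region belonged to 1 of 3 lists, which were regions higher in NelfA*/+, regions higher in control siblings, and regions common to both genotypes. The lists give a position and 1 score per region and no value per library, so the spread between replicates could not be measured and no difference below carries a test.

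H3K9me2 is the dimethyl mark on lysine 9 of histone H3, which marks silent chromatin in flies and is bound by HP1. The Drosophila Y is almost wholly heterochromatic, is built mainly of satellites and transposable elements (TEs), and is dispensable for the viability of the male. Its few protein-coding genes work in the male germline, and several of them span very long introns filled with repeats.

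The sequences behind the score extremes and the longest regions show what kinds of Y DNA the lists hold. All are given 5′ to 3′ on the plus strand of BDGP6, as the whole region or its central 300 bases. In the first pair, from regions higher in NelfA*/+ with tandem repeats, capitals mark copies of the repeat unit. This unit is AAGAT, read on the opposite strand as ATCTT, in chrY:1417603-1417902, and AATAGAC in chrY:323189-323488.
Y 1417603 to 1417902: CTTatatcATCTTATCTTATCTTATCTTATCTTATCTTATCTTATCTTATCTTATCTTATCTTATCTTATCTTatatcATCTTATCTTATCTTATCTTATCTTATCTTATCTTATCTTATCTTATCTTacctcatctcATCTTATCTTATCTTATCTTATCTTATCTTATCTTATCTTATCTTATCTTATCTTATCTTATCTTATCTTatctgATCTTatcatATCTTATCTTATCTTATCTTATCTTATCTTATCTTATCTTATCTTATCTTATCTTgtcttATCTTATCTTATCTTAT
Y 323189 to 323488: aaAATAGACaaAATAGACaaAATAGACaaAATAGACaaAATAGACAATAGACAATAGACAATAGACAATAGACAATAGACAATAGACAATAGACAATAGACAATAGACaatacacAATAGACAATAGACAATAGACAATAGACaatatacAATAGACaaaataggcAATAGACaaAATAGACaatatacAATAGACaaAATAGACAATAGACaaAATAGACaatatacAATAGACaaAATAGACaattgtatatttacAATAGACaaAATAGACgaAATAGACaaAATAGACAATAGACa
In the next set, capitals mark bases covered by a 31-base word found at 1 place only in the reference genome, and lower case marks bases shared with other places. The first comes from an ORY intron at chrY:3579773-3580072 and the other from a kl-5 intron at chrY:89146-89445, both higher in NelfA*/+.
Y 3579773 to 3580072: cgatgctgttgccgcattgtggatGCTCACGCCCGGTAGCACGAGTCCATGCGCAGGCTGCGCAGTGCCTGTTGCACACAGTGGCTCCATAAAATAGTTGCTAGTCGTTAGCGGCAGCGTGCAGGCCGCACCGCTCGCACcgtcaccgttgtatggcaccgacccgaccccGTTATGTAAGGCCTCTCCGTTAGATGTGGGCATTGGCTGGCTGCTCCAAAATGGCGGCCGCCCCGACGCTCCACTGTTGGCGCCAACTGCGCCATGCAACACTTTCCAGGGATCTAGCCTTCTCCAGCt
Y 89146 to 89445: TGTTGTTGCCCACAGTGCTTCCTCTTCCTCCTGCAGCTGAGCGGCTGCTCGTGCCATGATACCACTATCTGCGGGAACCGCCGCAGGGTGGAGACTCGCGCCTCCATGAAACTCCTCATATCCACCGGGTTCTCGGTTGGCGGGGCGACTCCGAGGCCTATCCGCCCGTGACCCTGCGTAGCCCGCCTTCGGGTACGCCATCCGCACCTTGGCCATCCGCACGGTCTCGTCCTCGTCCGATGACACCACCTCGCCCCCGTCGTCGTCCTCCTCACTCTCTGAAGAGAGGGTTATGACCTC
Regions higher in control siblings are shown next, with the same use of capitals. They are the region with the highest score in that list, chrY:718005-718209, an AT-rich region with no TE similarity, chrY:1442692-1442970, and the longest region of that list, chrY:250058-250357.
Y 718005 to 718209: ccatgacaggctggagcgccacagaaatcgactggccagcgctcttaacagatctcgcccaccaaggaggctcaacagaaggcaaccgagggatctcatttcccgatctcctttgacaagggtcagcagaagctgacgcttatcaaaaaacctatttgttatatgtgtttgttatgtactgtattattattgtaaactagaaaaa
Y 1442692 to 1442970: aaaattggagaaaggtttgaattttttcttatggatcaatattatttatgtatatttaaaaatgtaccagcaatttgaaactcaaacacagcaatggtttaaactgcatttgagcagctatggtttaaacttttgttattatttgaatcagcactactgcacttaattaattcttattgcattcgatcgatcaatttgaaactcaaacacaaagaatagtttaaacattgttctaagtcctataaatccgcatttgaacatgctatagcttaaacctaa
Y 250058 to 250357: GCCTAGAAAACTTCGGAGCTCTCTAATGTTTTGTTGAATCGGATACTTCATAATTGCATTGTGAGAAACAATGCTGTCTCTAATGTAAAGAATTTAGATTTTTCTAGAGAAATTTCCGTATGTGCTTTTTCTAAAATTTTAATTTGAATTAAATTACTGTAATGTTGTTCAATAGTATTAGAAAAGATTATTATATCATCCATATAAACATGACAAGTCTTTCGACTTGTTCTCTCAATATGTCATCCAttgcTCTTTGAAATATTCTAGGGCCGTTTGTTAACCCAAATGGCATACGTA

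On the Y chromosome, 461 regions were higher in NelfA*/+, 94 were higher in control siblings and 1448 were common. Regions higher in NelfA*/+ were 23.0% of the Y regions, against 29.4% of all regions in the series, and regions higher in control siblings were 4.69%, against 5.64% in the series. Regions higher in either genotype were thus 27.7% of the Y regions, and 35% of all regions. Both kinds of change held a smaller share of the Y regions than of the whole set, and the difference was not tested. The shares varied by place. Regions higher in NelfA*/+ were 27.6% in the pericentromeric 5 Mb of 2L, 2R, 3L, 3R and X, 36.7% in the rest of these arms, and 22.8% on the scaffolds, close to Y. Regions higher in control siblings were 5.85%, 3.01% and 10.7% in the same places, so the rest of the arms lay below Y. Among the 555 differential Y regions, 83.1% were higher in NelfA*/+, or 4.90 such regions for each region higher in control siblings. This share was 83.9% over all other sequences. It was 82.5% in the pericentromeric 5 Mb of 2L, 2R, 3L, 3R and X, 92.4% in the rest of these arms, and 68.1% on the scaffolds. By direction, and with repeated sequence included, Y therefore lay close to the pericentromeric heterochromatin of the arms and below their euchromatic remainder.

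Regions higher in NelfA*/+ covered 156 kb of Y, those higher in control siblings covered 26.3 kb, and common regions covered 678 kb. With overlaps counted once, the 3 lists covered 23.4% of the 3410 kb of known bases in the Y assembly, so most of the assembled Y lay outside any listed region. The median length was 285 bp for regions higher in NelfA*/+, 259.5 bp for those higher in control siblings and 353 bp for common regions. The longest region was 1298 bp, 481 bp and 4140 bp in these lists, in the same order. The deposited score had a median of 2.21 in regions higher in NelfA*/+ and 1.91 in those higher in control siblings, on a scale that the lists do not name. A score of at least 3 was reached by 99 regions higher in NelfA*/+ (21.5%) and by 7 regions higher in control siblings (7.45%). Outside Y, it was reached by 28.3% of the NelfA*/+ list and by 15.9% of the control sibling list. High scores were thus less frequent on Y in both directions, without a test of the difference.

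Differential regions were spread over the whole assembled chromosome. Of 37 windows of 100 kb, NelfA*/+ regions outnumbered those of control siblings in 36. The median window held 13 regions higher in NelfA*/+, 2 higher in control siblings and 40 common regions. The exception was window 14 (chrY:1300001-1400000), with 0 regions higher in NelfA*/+, 1 higher in control siblings and 7 common regions, which together covered 2.67% of its bases. Regions higher in NelfA*/+ were most numerous in windows 33, 31 and 28, with 25, 24 and 23 regions. Regions higher in control siblings were most numerous in window 32, with 9, and in windows 10 and 27, with 7 each. Common regions peaked in window 10, with 73, window 32, with 72, and windows 27 and 33, with 67 each. Windows 33 and 10 were also the most covered, at 46.7% and 46.4% of their bases. Across the 37 windows, the number of regions higher in NelfA*/+ followed the number of common regions (Pearson r = 0.78, Spearman rho = 0.77), and so did the number higher in control siblings (r = 0.74, rho = 0.69). The 2 differential lists followed each other less closely (r = 0.44, rho = 0.45). These windows share the same libraries and differ in known bases, from 38.9 to 100 kb, so the correlations describe this map only.

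**Figure D1:**
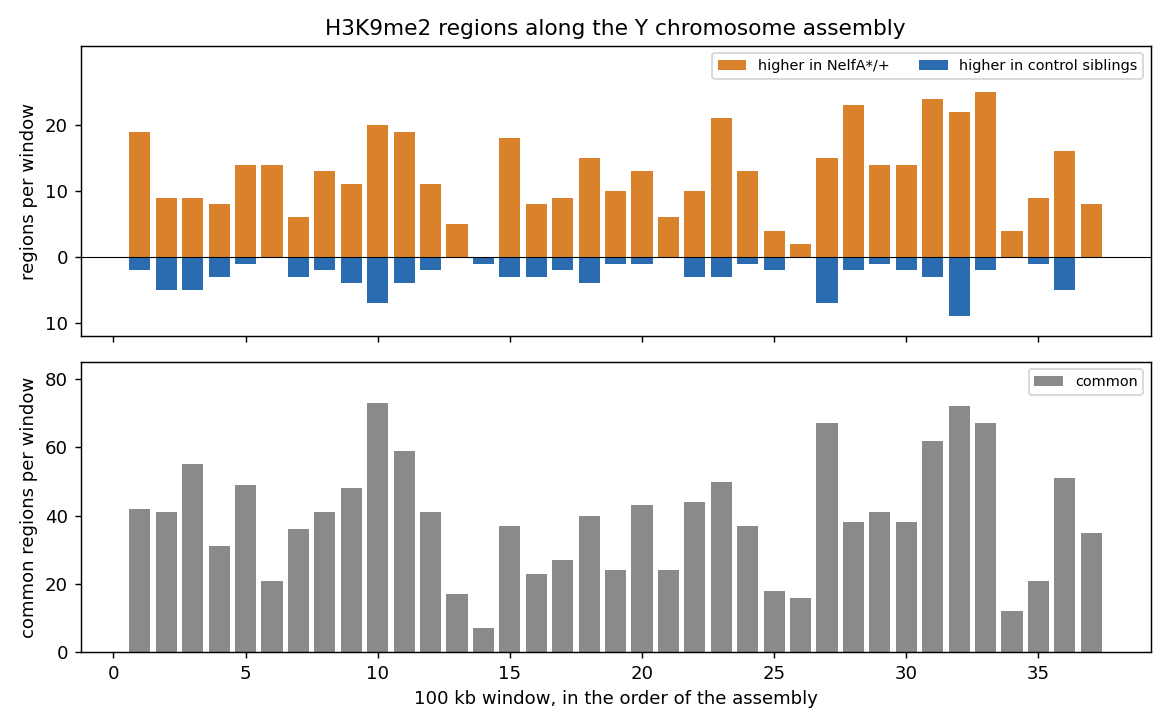
Number of H3K9me2 regions in each of 37 windows of 100 kb along the Y assembly (the last window is shorter), with regions higher in NelfA*/+ drawn upwards and those higher in control siblings downwards in the upper panel, and common regions in the lower panel. Upward bars exceed downward bars in 36 windows, and window 14 is nearly empty in both panels.

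Most differential regions lay on or beside H3K9me2 that both genotypes shared. Of the regions higher in NelfA*/+, 295 of 461 (63.99%) shared 1 bp or more with a common region, 50 of them lying wholly inside, and 420 (91.1%) lay within 1 kb of one. Of the regions higher in control siblings, 54 of 94 (57.4%) overlapped a common region, 7 lay wholly inside, and 85 (90.4%) were within 1 kb. The 1448 common regions themselves covered 19.9% of the known bases of Y. The share of Y within 1 kb of a common region was not measured, so these values have no background from the chromosome. The most distant region was 13.8 kb from a common region in the NelfA*/+ list and 8.04 kb in the control sibling list. In the pericentromeric arms, 70.1% and 60.7% of the regions of these lists overlapped a common region, and in the rest of the arms 45.9% and 29.5% did. No base of Y stood in both differential lists, which is no result, since a base cannot be higher in both genotypes. Of 554 neighbouring pairs of differential regions, 152 were of opposite direction. Of the 94 regions higher in control siblings, 27 lay within 1 kb of a region higher in NelfA*/+. Both counts depend on the sizes of the lists and were not set against a background.

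Base composition differed between the lists. The median GC content was 49.0% in regions higher in NelfA*/+, 41.1% in regions higher in control siblings and 44.5% in common regions, while the 300 bp windows of Y had a median of 39.0%. The quartiles of the differential lists, 43.1% to 53.6% for NelfA*/+ and 35.6% to 44.7% for control siblings, overlapped only narrowly. The same order held in the pericentromeric arms, with medians of 47.2%, 39.2% and 43.5%, so it was not seen on Y alone. When the 555 differential regions were divided into 3 equal classes by GC content, 121 of 185 regions (65.4%) were higher in NelfA*/+ in the lowest class, 162 of 185 (87.6%) in the middle class and 178 of 185 (96.2%) in the highest. GC content can alter amplification and read recovery in sequencing, and its part in the direction of these calls was not tested.

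**Figure D2:**
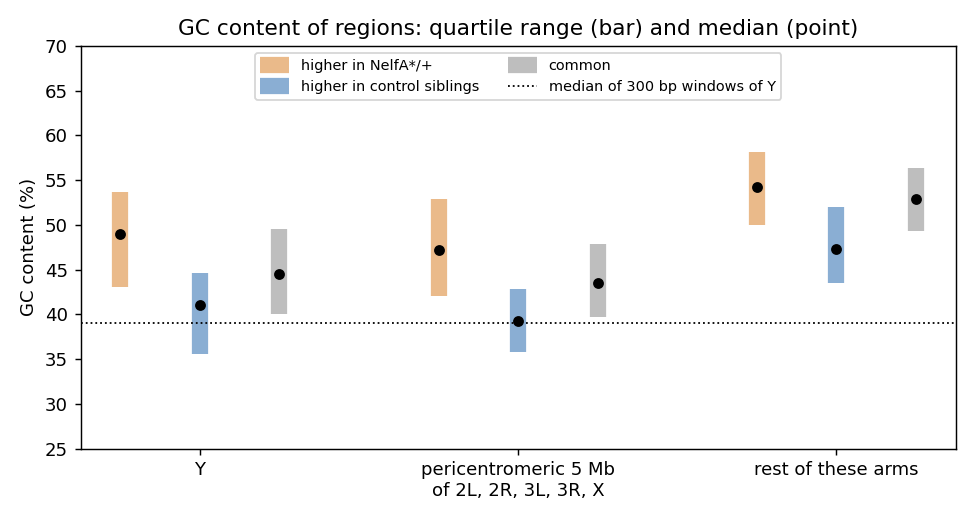
GC content of the regions on Y, in the pericentromeric 5 Mb of the arms and in the rest of the arms, in the order NelfA*/+, control siblings, common within each place, with bars for the quartile range and points for the median. On Y the medians are 49.0%, 41.1% and 44.5%, and the dotted line gives the 39.0% median of 300 bp windows of Y.

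Y regions consisted largely of repeated sequence. In the median region, 2.69% of the 31-base words of regions higher in NelfA*/+ occurred at a single place in the genome, against 3.74% in regions higher in control siblings and 5.13% in common regions. In the pericentromeric arms these medians were 27.5%, 41.6% and 27.7%, and in the rest of the arms all 3 were 100%. On the scaffolds they were 13.6%, 6.87% and 13.3%, nearer to Y. No such value was set beside them for the windows of Y, so the regions have no background from the chromosome here. A median of 76.0% of the words in Y regions higher in NelfA*/+, 67.2% in those higher in control siblings and 75.8% in common regions also occurred on another chromosome or scaffold. Not 1 unique word was found in 221, 42 and 627 regions of these lists, and at least 50% unique words in 56, 17 and 162. The long kl-5 intron region shown above is 1 of these 56, whereas the control sibling region with the highest score, chrY:718005-718209, had 0% unique words. How reads that match several places were assigned is not given in the sources used here, so signal from Y and signal from copies elsewhere cannot be told apart for most of the 2003 regions. Within the mostly unique regions, 76.7% of the differential regions were higher in NelfA*/+, and the median GC content was 49.3% for NelfA*/+ and 42.1% for control siblings. This class held 56 and 17 differential regions on Y, in that order. It held 1637 and 405 in the pericentromeric arms, and 5116 and 712 over all sequences but Y.

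**Figure D3:**
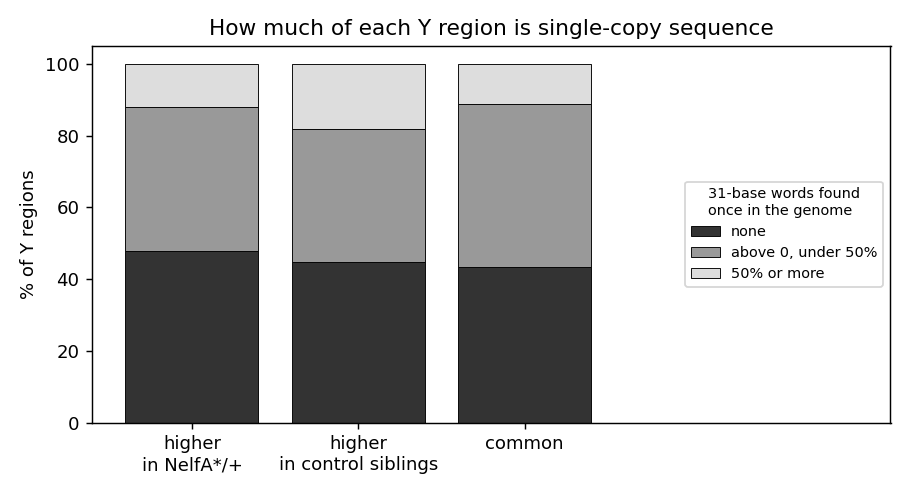
Share of Y regions, per list, in which none, some but under 50%, or at least 50% of the 31-base words occur once in the reference genome. Regions with no unique word make up 47.9% of those higher in NelfA*/+, 44.7% of those higher in control siblings and 43.3% of common regions.

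Many regions resembled each other closely. Among all Y regions, 3899 pairs shared at least 150 bp at 95% identity or more. A partner of this kind existed for 357 regions higher in NelfA*/+ (77.4%), 54 higher in control siblings (57.4%) and 1041 common regions (71.9%). Of the 461 regions higher in NelfA*/+, 335 (72.7%) had a partner among the common regions, and 11 had one among regions higher in control siblings. Common regions were 72.3% of the Y regions, and those higher in control siblings 4.69%. Of the same 461 regions, 295 overlapped a common region by 1 bp or more, and pairs that share bases at 1 place may be counted here. The 335 therefore does not give how often separate copies stood in different lists. Pairs that joined the 2 differential lists numbered 12, with 165 pairs within the NelfA*/+ list and 4 within the control sibling list. These lists hold 461 and 94 regions, so the numbers of possible pairs differ widely, and the counts were not adjusted for this. Regions that share sequence this closely are not independent of each other.

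TE-derived sequence was found in most regions of every list. Similarity to an annotated TE copy, of at least 100 bp at 80% identity, was found for 370 regions higher in NelfA*/+ (80.3%), 71 higher in control siblings (75.5%) and 1159 common regions (80.04%). It was found for 77.2% of the 300 bp windows of Y, so none of the lists stood far from the chromosome they lie on. The most similar copies belonged to 88 families. The 1360 family, P-like DNA transposons that are frequent in fly heterochromatin, was the most frequent, with 22 regions higher in NelfA*/+, 11 higher in control siblings and 140 common. Only 12.7% of the 1360-like regions were higher in NelfA*/+, below the 23.0% of all Y regions. Of the 94 regions higher in control siblings, 11 were 1360-like, beside 9.64% of the 300 bp windows of Y.

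Among the non-LTR retrotransposons, Rt1b-like regions numbered 43 higher in NelfA*/+, 2 higher in control siblings and 79 common, so that 34.7% were higher in NelfA*/+. R1A1, an element that inserts in ribosomal RNA genes, gave 16, 1 and 20 regions, with 43.2% higher in NelfA*/+. HeT-A, a retrotransposon of the telomere ends that also occurs in arrays on Y, gave 27, 3 and 80. The F element gave 13, 3 and 36. HeT-A and F, with 24.5% and 25.0% of their regions higher in NelfA*/+, were thus close to the Y regions as a whole, whereas Rt1b and R1A1 lay above them.

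Among LTR retrotransposons, the ninja-Dsim-like family had the largest share of regions higher in NelfA*/+ of the 8 most frequent families, at 46.7%, with 28 regions higher in NelfA*/+, 1 higher in control siblings and 31 common. The ORY intron sequence shown above is of this kind. GATE gave 27, 1 and 89 regions, and Quasimodo gave 12, 2 and 52, so that 23.1% and 18.2% of their regions were higher in NelfA*/+. The gypsy families together, 6 in number, gave 16 regions higher in NelfA*/+, 5 higher in control siblings and 57 common, and the diver families gave 7, 1 and 27. With 20.5% of the gypsy-like regions and 7 of 35 diver-like regions higher in NelfA*/+, these retrotransposons lay slightly below the whole set of Y regions. Regions with no TE similarity numbered 91, 23 and 289, with 22.6% higher in NelfA*/+.

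Of the 26 families with at least 20 Y regions, 24 had more regions higher in NelfA*/+ than in control siblings. The exceptions, named here after their values were seen, were Cr1a, a non-LTR element with 3 regions in the NelfA*/+ list and 6 in the control sibling list, and Idefix, an LTR element with 3 of each. Across the 26 families, the share of regions higher in NelfA*/+ was larger in families of higher GC content (Pearson r = 0.58, Spearman rho = 0.53). The regions of Rt1b, R1A1 and ninja-Dsim-like had median GC contents of 53.2%, 54.6% and 56.1%, whereas those of Idefix had 36.5%. The families share libraries and related sequence, and the part of base composition in the skew between families was not tested. The annotation itself places 80 TE copies on Y, 57 of them 1360. Of the 80 copies, 13 overlapped a region higher in NelfA*/+, 6 a region higher in control siblings and 39 a common region.

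**Figure D4:**
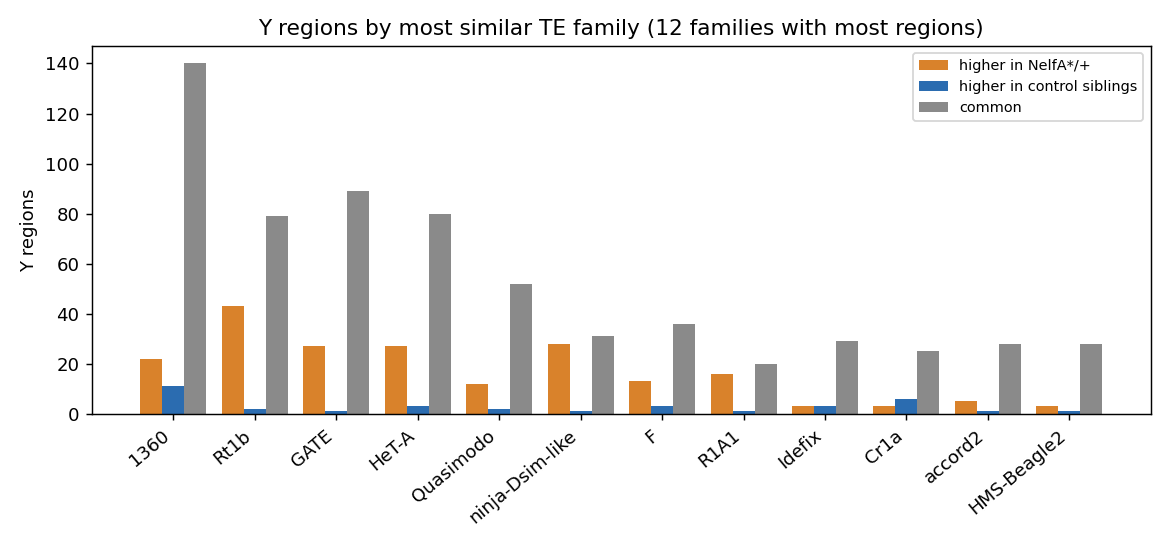
Number of Y regions most similar to each of the 12 TE families with the most regions, for regions higher in NelfA*/+, higher in control siblings and common. The 1360 family has 22, 11 and 140 regions in these lists, and ninja-Dsim-like has 28, 1 and 31.

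Tandem repeats were rare in the lists but included the highest score on Y. Only 2 regions higher in NelfA*/+ repeated their bases at a fixed distance of 2 to 50 bp with at least 80% identity, against 0 regions higher in control siblings, 4 common regions and 16 of 11158 windows of Y. The first, chrY:1417553-1417952, had AAGAT as its unit of 5 bases, with 22.0% GC and a score of 22.2, the highest on Y. The other, chrY:322690-323987, had AATAGAC as its unit of 7 bases, with 26.6% GC and a score of 7.31, and was the longest region of its list. Neither overlapped a common region, and both were intergenic. A GATE-like region of the NelfA*/+ list, chrY:2610176-2610500, had a score of 10.6 and 30.2% GC. These 3 high scores thus lay in AT-rich sequence, although the list as a whole was the richest in GC. The region chrY:3579699-3580147 in the ORY intron had a score of 6.65 and 60.6% GC. In the control sibling list the 5 highest scores lay between 3.27 and 4.87.

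Short satellite units of heterochromatin were searched on both strands as at least 3 tandem copies. The 5-base units were AAGAG, followed by AAGAC, by AATAT, by the related AATAC, by the similar AATAG, and finally AACAC, and the 7-base units were AATAAAC and also AATAAAG. They were present in 1 region higher in NelfA*/+ (0.217%), in 0 regions higher in control siblings and in 14 common regions (0.967%). The units AAGAT and AATAGAC of the 2 tandem regions described above were not among those searched. A match was present in 0.457% of the 300 bp windows of Y. Much of the satellite DNA of Y is not part of the assembly, which has 211 gaps, so these counts concern the assembled part only.

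Regions were found over most of the protein-coding genes of Y. Of 12 listed Y genes, 10 overlapped at least 1 region, 9 a region higher in NelfA*/+, 6 a region higher in control siblings and 10 a common region. Overlap with any annotated gene was found for 33.8% of the regions higher in NelfA*/+, 31.9% of those higher in control siblings and 31.1% of common regions, beside 30.5% of the windows of Y. By midpoint, 125 regions higher in NelfA*/+ lay in introns and 4 in exons, against 24 and 1 in the control sibling list, and 352 and 16 in the common list. Intron midpoints were thus 27.1%, 25.5% and 24.3% of these lists, beside 25.6% of the windows of Y, and exon midpoints were 0.868%, 1.06% and 1.10%, beside 1.75% of the windows. A midpoint within 1 kb of a gene start was found for 8.89%, 10.6% and 8.63% of the regions of these lists, and for 5.21% of the windows of Y. These starts include those of pseudogenes and repeated genes. Part of a region higher in NelfA*/+ lay within 1 kb of 41 starts. Of these, 28 belonged to pseudogenes outside the Mst77Y repeats, 7 to Su(Ste) copies, 4 to Mst77Y copies and 1 to a listed gene. For regions higher in control siblings, 12 starts were reached, with 0 of listed genes.

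The dynein genes differed from each other. The gene kl-3 (FBgn0267432, chrY:336381-563165), which encodes an axonemal dynein heavy chain of the sperm tail, overlapped 32 regions higher in NelfA*/+, 4 higher in control siblings and 83 common regions. The gene kl-5 (FBgn0267433, chrY:22250-137486), another such heavy chain, overlapped 23, 4 and 57. Per 100 kb of known bases, kl-5 had 20.2 regions higher in NelfA*/+ and kl-3 had 15.0. For comparison, the 100 kb windows of Y held a median of 13 such regions, with a range of 0 to 25. Differences between genes were not tested. The dynein gene kl-2 (FBgn0001313, chrY:573088-664173) overlapped only 3 regions higher in NelfA*/+, 3 higher in control siblings and 22 common, which is 4.08 per 100 kb in each differential list. None of its 13386 exonic bases was covered by any list, while 16.8% of the exonic bases of kl-5 and 4.91% of those of kl-3 were.

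Ppr-Y (FBgn0046697, chrY:1636574-1884846) overlapped 32 regions higher in NelfA*/+, 6 higher in control siblings and 80 common, with 0 of its 1710 exonic bases covered. WDY (FBgn0267449, chrY:2273422-2487777), which is the male fertility factor kl-1, overlapped 25, 4 and 71. ORY (FBgn0046323, chrY:3561745-3618339), the male fertility factor ks-1, overlapped 8 regions higher in NelfA*/+, 0 higher in control siblings and 24 common. At 20.2 regions higher in NelfA*/+ per 100 kb it matched kl-5, and 34.2% of its exonic bases were covered. CCY (FBgn0267592), the male fertility factor ks-2, overlapped 1, 0 and 6, and PRY (FBgn0267489) overlapped 4, 3 and 21. The small genes carried few regions. FDY (FBgn0265047), a Y copy of the autosomal gene vig2, overlapped 1 region higher in NelfA*/+, with a score of 4.59, and 2 common regions, which covered 67.8% of its exonic bases. The protein phosphatase gene Pp1-Y2 (FBgn0046698) overlapped 2 common regions only, and Pp1-Y1 (FBgn0261399) and ARY (FBgn0058064) overlapped 0 regions of any list.

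**Figure D5:**
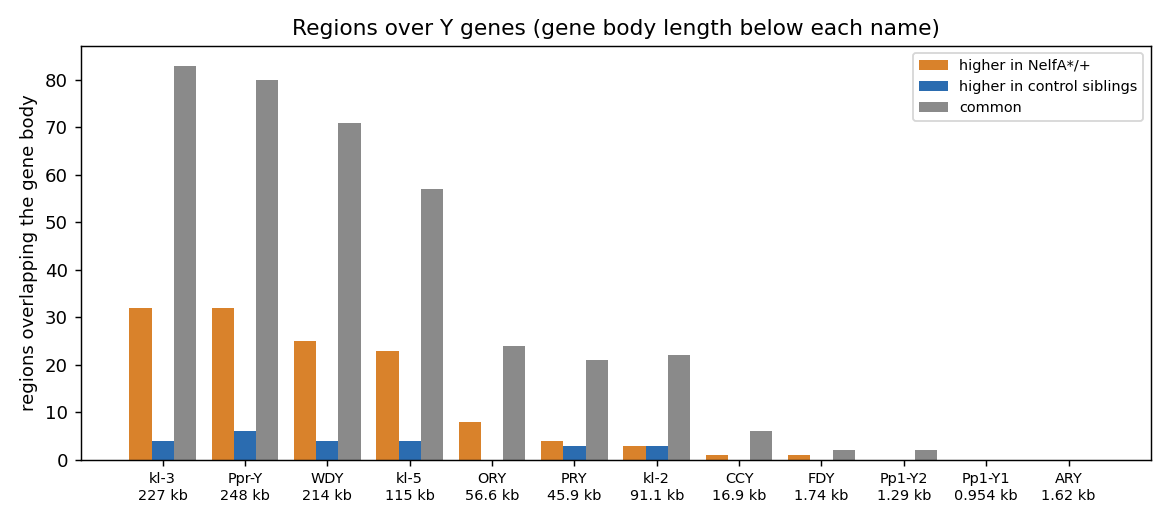
Number of regions overlapping the body of each of 12 Y genes, for regions higher in NelfA*/+, higher in control siblings and common, with the gene length in kb under each name. The counts follow gene length in the main, with kl-3 and Ppr-Y at 32 regions higher in NelfA*/+ each, and kl-2 at 3.

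The multicopy genes of Y overlapped common regions more often than regions of either differential list, and common regions were 72.3% of all Y regions. Of all 113 annotated genes and pseudogenes of Y, these copies included, 80 overlapped a common region, 34 a region higher in NelfA*/+ and 12 a region higher in control siblings. Su(Ste) repeats make piRNAs that silence the X-linked Stellate genes in testis. Of 27 annotated Su(Ste) copies, 20 overlapped a common region, 3 a region higher in NelfA*/+ and 3 a region higher in control siblings, with a median of 49.0% of the copy covered. Of 18 annotated Mst77Y copies, which derive from the autosomal sperm chromatin gene Mst77F, 10 overlapped a common region, 4 a region higher in NelfA*/+ and 0 a region higher in control siblings, with a median of 16.5% covered. Regions over the Mst77Y copies had a median of 0.987% unique words, and those over Su(Ste) copies 12.4%, so that calls at single copies of either family are uncertain. Of 52 other pseudogenes, 36 overlapped a common region, 17 a region higher in NelfA*/+ and 3 a region higher in control siblings, with a median of 63.9% covered. Of these pseudogenes, 47 lay in windows 31 to 33, including all 17 with a region higher in NelfA*/+. Genes for the large ribosomal RNAs of the Y array were not annotated on the assembled Y, with 0 matches by name.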

How the data were processed

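H3K9me2 ChIP-seq of Day 50 heads was performed by the authors with 2 ChIP and 2 input libraries per genotype (8 libraries). Per the labels, reads were trimmed, mapped to BDGP6 with STAR (2.5) without introns, and peaks were called with MACS2 (2.1.1) in broad mode with extension to 200 bp. Differential and common regions came from MACS2 bdgdiff (gaps up to 100 bp, lengths from 200 bp), which uses no variance between replicates. The deposited score is 1 unnamed number per region as the authors left it, used only to rank and filter. Whether replicates were pooled and which depths were used is not given in the sources used here, and the lists hold no counts, so depth is unknown. The lists carry condition numbers, and genotypes were assigned because list sizes equalled those stated in the study.

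Regions were set against the RefSeq sequence of BDGP6 and the Ensembl annotation (release 115). All 1490 sequence names matched, and 0 regions ran past an end. Python 3.11.15, numpy 2.4.6, pandas 2.3.3, matplotlib 3.10.9 and BLAST+ 2.17.0 were used, and the measures were checked on simulated data. Words of 31 bases were counted on both strands of the genome. TE families were assigned by blastn (E value 1e-10). Midpoints were assigned in the order promoter (1 kb around a start), exon, intron, intergenic. Members, gene lists and measures were chosen with earlier results of these data known. Named were the 5 highest scores and 3 longest regions of each differential list, the 3 longest common regions, the 12 listed genes with the Su(Ste), Mst77Y and ribosomal RNA repeats, the 8 most frequent TE families with gypsy and diver, and the 3 windows with the most regions per list. Several of the named regions are not reported here. Coverage tracks and the input libraries were not used here.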

Additional observations from a re-analysis of the deposited data

How the results depend on the processing

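Y regions higher in NelfA*/+ outnumbered those higher in control siblings under each alternative tried for their counts or share. The median GC content stayed higher in NelfA*/+ regions than in control sibling regions with the score minimum, with the length minimum, in mostly unique sequence and without tandem repeats. It was not recomputed for joined regions or covered bases. With a score of at least 3, 99 and 7 regions remained, and 93.4% of the differential regions were higher in NelfA*/+, with median GC contents of 50.9% for NelfA*/+ and 34.0% for control siblings. With a length of at least 400 bp, 111 regions higher in NelfA*/+, 8 higher in control siblings and 606 common regions were left, the share was 93.3%, and the median GC content was 50.7% for NelfA*/+ and 45.7% for common regions. Joining regions less than 1 kb apart left 648 common regions. In mostly unique sequence the share was 76.7%, and common regions had 45.7% GC. Without tandem repeats, an alternative chosen after seeing the data, the share was 83.0%. Requiring 50% of a region inside common regions gave 29.9% for NelfA*/+ and 28.7% for control siblings, and a distance of 1 kb gave 91.1% and 90.4%. TE similarity of at least 200 bp was found for 70.1%, 63.8% and 72.0% of the NelfA*/+, control sibling and common regions, and at 90% identity for 67.0%, 60.6% and 68.5%. Smaller counts follow from a stricter rule, and the cause of the shifts in shares and GC content was not tested. No paired analysis was possible because the lists hold no value per library, and for the same reason no replicate could be left out. Depth is unknown, so no counting error is given.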
